A study of Mus musculus with 12 samples.

Results

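The 26S proteasome was followed through the genes of its constitutive subunits in regulatory T cells (Treg) of mice with and without the transcription factor Ikaros. The members were all genes of the expression table whose symbol was Psma, Psmb, Psmc, Psmd or Psme followed by a number, without the immunoproteasome genes Psmb8, Psmb9 and Psmb10 and without names holding -ps. This gave 41 of 36222 genes. They comprised 8 alpha and 8 beta genes of the 20S core, 6 ATPase and 3 non-ATPase genes of the 19S base, 8 genes of the 19S lid, 3 chaperones of 19S assembly, 4 activators and 1 gene that is no subunit, Psmc3ip, a partner of meiotic recombination whose symbol matches the rule. RNA was sequenced from CD4+ YFP+ Treg, from spleen per the labels, though the general purification protocol of the study names spleen and lymph node, with 3 libraries in each of 4 groups. WT animals carried Foxp3-YFP-Cre alone, a Cre recombinase expressed from the Foxp3 locus with a yellow fluorescent protein, and cKO animals carried the same Cre with floxed Ikzf1, the gene of Ikaros, so that deletion was limited to cells that had expressed Foxp3. The animals were young adults, and per the labels the cells came from individual mice, without saying whether ex vivo and stimulated cells shared a mouse. Cells were lysed directly (ex vivo) or after culture for 4 h on anti-CD3 plus anti-CD28 fixed to the plate, each at 1 µg/ml (stimulated). The stimulated cells therefore differed from the ex vivo cells by the culture as well as by the antibodies, and these cannot be told apart.

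The proteasome degrades proteins that carry ubiquitin chains. Its 20S core is a stack of rings in which alpha subunits form the gates and beta subunits the inner chamber, and Psmb6, Psmb7 and Psmb5 (beta1, beta2 and beta5) hold the proteolytic sites, cutting after acidic, basic and hydrophobic residues respectively. The 19S particle caps the core: its base holds a ring of ATPases (Psmc1 to Psmc6) that unfold the substrate and pull it in, and its lid removes ubiquitin. Activators of the Psme family can take the place of the 19S particle. In lymphocytes Psmb9, Psmb10 and Psmb8 replace the catalytic subunits to form the immunoproteasome, which shapes the peptides shown on MHC class I.

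Values are the deposited TPM (transcript abundance per gene length, scaled to a fixed total) divided by a scaling factor per library, called scaled TPM here. A single gene, Gm10800, took 17.7% to 55.9% of all TPM. Changes are differences of log2(scaled TPM + 1), tested with limma across the 13318 genes that reached a mean of 5 TPM in some group, and a gene was called when its Benjamini-Hochberg adjusted p was under 0.05. Reads on genes numbered 8208659 to 20247649 per library. Ikzf1 stood at 114, 104 and 113 scaled TPM in WT ex vivo against 42.1, 33.03 and 38.4 in cKO ex vivo, and at 66.7, 71.1 and 68.9 in WT stimulated against 29.96, 30.1 and 23.3 in cKO stimulated, so that all libraries matched their genotype labels. The 6 Treg markers summed to between 1060 and 2090 scaled TPM in all libraries, while the markers of B cells, myeloid cells and NK cells did not exceed 6.19 for any single gene and Cd8b1 reached at most 11.3; their part in the results was not tested. Replicate 3 of WT ex vivo alone held Xist, at 191 scaled TPM against at most 1.86 elsewhere, and was lowest in the Y-linked Ddx3y (0.10 against 20.01 to 47.96 scaled TPM). The Gm10800 share moved with the groups. Ex vivo it lay between 17.7% and 39.8% for WT and between 20.4% and 24.4% for cKO, whereas stimulated WT libraries held between 32.6% and 44.4% and stimulated cKO libraries between 42.9% and 55.9%. Its part in the results was not tested. Of 5 genes read as a check of stimulation, Egr2, Myc and Tnfrsf9 were called higher and Nr4a1 and Cd69 lower in WT stimulated than in WT ex vivo. In cKO 3 were called higher and 1 lower. Nr4a1 averaged 1022 scaled TPM in WT ex vivo and 691 in WT stimulated, and Cd69 388 and 146. The ex vivo cells are therefore not shown to be resting. RNA was pooled over all cells of a library, so fewer cells expressing a gene and less RNA per cell cannot be told apart.

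Of the 41 members, 38 reached 5 TPM in at least 1 group and were tested. The levels of the tested members spanned 6.31 (Psmd9, an assembly chaperone) to 82.6 (Psmd8) scaled TPM as means over the 4 groups. The 20S and 19S particles hold most of their subunits in equal number. Their lowest tested gene was Psma5, at 6.62, a level that is uncertain for the reason given below. The lowest without a near copy elsewhere in the genome or an overlapping gene was Psma4, at 13.4. The tested members were covered by 49 to 2464 reads per library, with a median of 556. The 3 members under the filter were Psma8, an alpha subunit of the testis, Psmb11, the beta subunit of the thymic cortical epithelium, and Psmc3ip. Psma8 stood at 1.25, 3.39 and 1.91 scaled TPM in WT ex vivo, 1.46, 2.59 and 1.32 in cKO ex vivo, 2.11, 2.38 and 2.95 in WT stimulated and 2.35, 3.39 and 3.13 in cKO stimulated. Psmb11 stood at 1.51, 2.19 and 1.56 scaled TPM in WT ex vivo, 2.10, 2.93 and 1.82 in cKO ex vivo, 3.03, 2.48 and 2.90 in WT stimulated and 3.47, 3.24 and 3.96 in cKO stimulated. Foxn1 and Psmb11, the markers of thymic epithelium, ran between 0.98 and 4.16 scaled TPM as single genes. For reference, 1716 genes with olfactory or vomeronasal receptor names had group medians of 0.73 to 1.18 scaled TPM, with 95th percentiles of 1.58 to 2.33, and this level was highest in cKO stimulated, as it was for Psma8 and Psmb11.

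**Figure D1:**
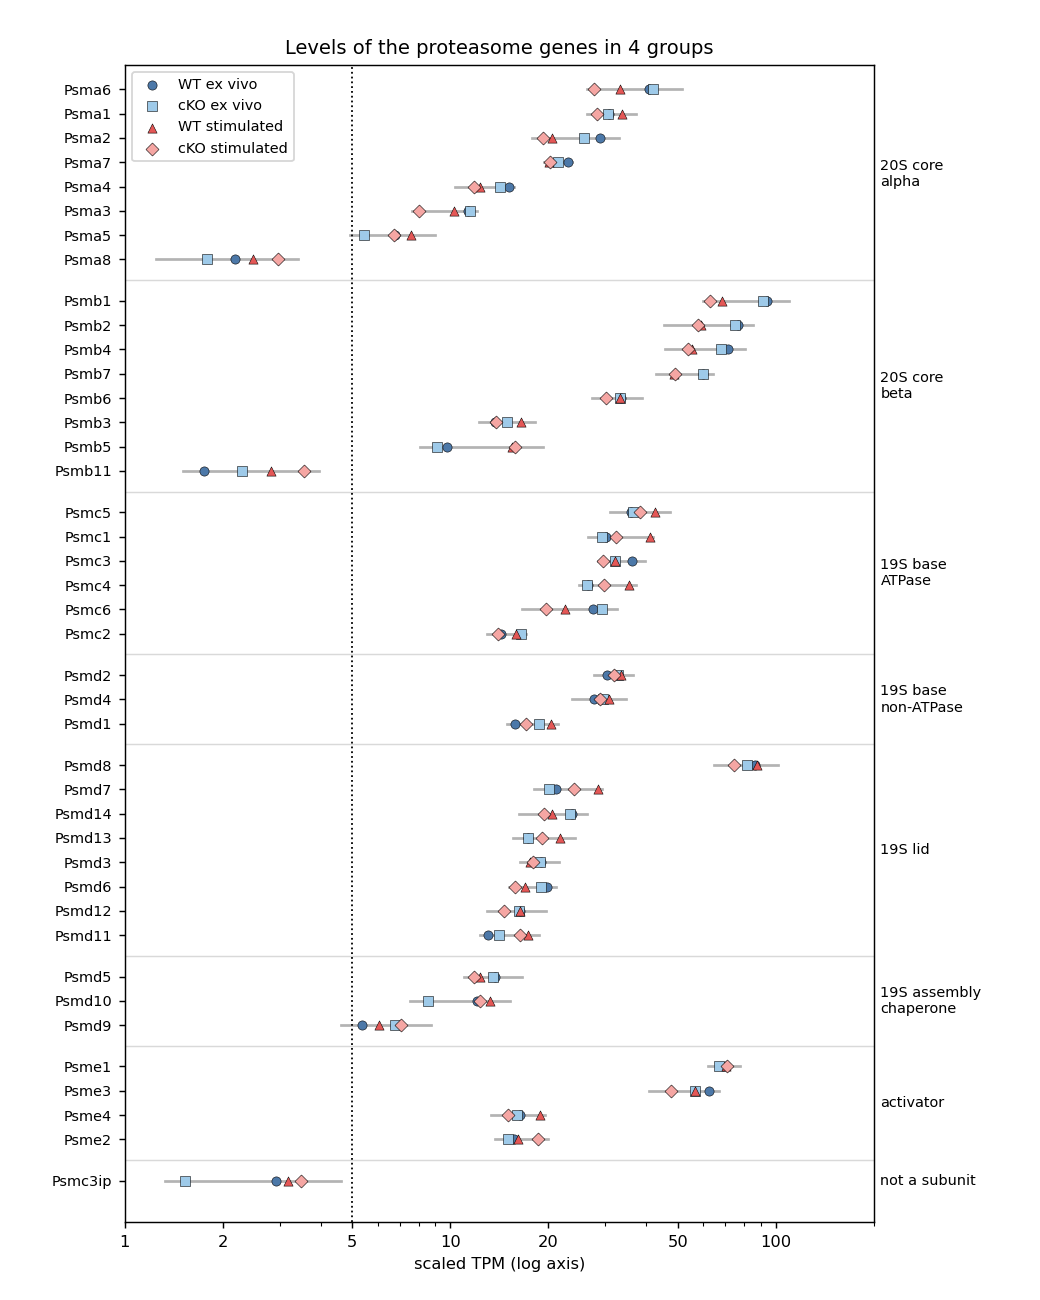
Levels of the 41 members by role, in scaled TPM on a log axis, with one symbol per group for the mean of 3 libraries and a grey line from the lowest to the highest of 12 libraries. The dotted line marks 5 TPM, below which only Psma8, Psmb11 and Psmc3ip lie in all 4 groups, while Psmd8 and Psmb1 lie highest.

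Among the alpha subunits Psma6 was the highest member and Psma5 the lowest that was tested. Psma6 stood at 39.5, 34.1 and 48.5 scaled TPM in WT ex vivo, 51.6, 34.5 and 40.2 in cKO ex vivo, 33.7, 32.5 and 33.8 in WT stimulated and 28.8, 26.4 and 27.7 in cKO stimulated. Psma1 stood at 31.00, 28.4 and 32.8 scaled TPM in WT ex vivo, 30.8, 29.1 and 31.7 in cKO ex vivo, 33.5, 30.6 and 37.2 in WT stimulated and 30.4, 28.3 and 26.3 in cKO stimulated. Psma5 stood at 5.80, 8.97 and 5.50 scaled TPM in WT ex vivo, 5.77, 5.61 and 4.91 in cKO ex vivo, 8.09, 7.80 and 6.84 in WT stimulated and 6.62, 6.44 and 7.09 in cKO stimulated. Psma6 was thus lower in every stimulated library than in every ex vivo library, whereas Psma1 overlapped between ex vivo and stimulated in both genotypes. Of the Psma5 transcript, 78.8% has a near copy elsewhere in the genome (at least 98% identity over at least 51 bases), so that reads could be split between copies and its value is uncertain.

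Among the beta subunits Psmb1 and Psmb2 were the most abundant. Psmb1 stood at 98.7, 73.9 and 109.9 scaled TPM in WT ex vivo, 98.6, 80.00 and 96.1 in cKO ex vivo, 69.8, 66.8 and 68.8 in WT stimulated and 61.3, 67.8 and 59.8 in cKO stimulated. Psmb2 stood at 70.01, 74.3 and 85.1 scaled TPM in WT ex vivo, 75.4, 77.1 and 72.2 in cKO ex vivo, 59.7, 59.03 and 58.7 in WT stimulated and 61.8, 66.4 and 45.5 in cKO stimulated. Both were lower in every stimulated library than in every ex vivo library. The 3 catalytic subunits were listed at unequal levels ex vivo, with Psmb7 at 59.7 ± 4.36 scaled TPM in WT ex vivo (SD, n = 3), Psmb6 at 33.5 ± 0.572 and Psmb5 at 9.78 ± 1.41. Psmb7 stood at 60.3, 55.2 and 63.8 scaled TPM in WT ex vivo, 64.3, 54.6 and 60.3 in cKO ex vivo, 48.03, 47.8 and 50.2 in WT stimulated and 48.96, 54.7 and 42.96 in cKO stimulated. Psmb6 stood at 33.9, 32.9 and 33.8 scaled TPM in WT ex vivo, 36.7, 34.1 and 28.8 in cKO ex vivo, 27.2, 38.8 and 34.03 in WT stimulated and 31.4, 30.95 and 28.2 in cKO stimulated. Psmb5 stood at 8.21, 10.2 and 10.9 scaled TPM in WT ex vivo, 9.37, 9.83 and 8.05 in cKO ex vivo, 18.6, 14.4 and 13.3 in WT stimulated and 13.3, 15.1 and 19.3 in cKO stimulated. Psmb5, the lowest of the beta genes tested, was higher in every stimulated library than in every ex vivo library, in both genotypes, while Psmb6 overlapped between ex vivo and stimulated within each genotype. Of the Psmb5 transcript 99.9% has a near copy elsewhere, so its level and its place among the beta genes are uncertain.

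In the 19S base the levels were closer to each other than in the core. Psmc5 stood at 37.5, 31.02 and 39.4 scaled TPM in WT ex vivo, 38.98, 34.9 and 35.3 in cKO ex vivo, 47.4, 39.7 and 40.7 in WT stimulated and 35.96, 42.1 and 37.3 in cKO stimulated. Psmc1 stood at 29.1, 26.5 and 34.6 scaled TPM in WT ex vivo, 30.6, 27.2 and 30.2 in cKO ex vivo, 41.9, 41.4 and 39.7 in WT stimulated and 31.8, 34.7 and 30.5 in cKO stimulated. Psmc2 stood at 13.5, 14.9 and 14.7 scaled TPM in WT ex vivo, 16.99, 15.5 and 17.1 in cKO ex vivo, 17.1, 15.2 and 15.4 in WT stimulated and 14.2, 15.03 and 12.99 in cKO stimulated. Psmc1, the ATPase ring subunit Rpt2, was higher in all 3 WT stimulated libraries than in any other library, and Psmc2 was the lowest of the ATPases. Psmd2 stood at 30.9, 27.6 and 32.8 scaled TPM in WT ex vivo, 35.3, 31.9 and 31.4 in cKO ex vivo, 29.2, 36.5 and 34.7 in WT stimulated and 31.6, 33.4 and 30.5 in cKO stimulated. Psmd4 stood at 27.9, 23.8 and 31.6 scaled TPM in WT ex vivo, 31.3, 28.2 and 28.8 in cKO ex vivo, 29.2, 31.6 and 31.8 in WT stimulated and 25.5, 34.6 and 26.6 in cKO stimulated. Psmd2 (Rpn1) is a scaffold that docks ubiquitin shuttles and Psmd4 (Rpn10) a ubiquitin receptor, and both overlapped between all 4 groups.

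In the lid, Psmd8 (Rpn12) had the highest mean over the groups of any member. Psmd8 stood at 85.97, 71.3 and 102 scaled TPM in WT ex vivo, 83.2, 83.8 and 78.6 in cKO ex vivo, 84.8, 83.01 and 94.9 in WT stimulated and 74.7, 83.97 and 64.8 in cKO stimulated. Psmd12 stood at 15.4, 13.9 and 19.7 scaled TPM in WT ex vivo, 16.5, 15.3 and 16.9 in cKO ex vivo, 16.96, 15.2 and 17.1 in WT stimulated and 15.8, 15.3 and 12.98 in cKO stimulated. Both overlapped between ex vivo and stimulated. The assembly chaperones hold the base until it meets the core, and they were among the lowest members. Psmd5 stood at 12.2, 12.4 and 16.6 scaled TPM in WT ex vivo, 15.3, 12.5 and 12.7 in cKO ex vivo, 11.01, 13.2 and 12.8 in WT stimulated and 11.1, 12.2 and 12.1 in cKO stimulated. Psmd9 stood at 5.55, 5.88 and 4.62 scaled TPM in WT ex vivo, 7.63, 5.78 and 6.88 in cKO ex vivo, 5.90, 5.91 and 6.32 in WT stimulated and 6.39, 6.10 and 8.71 in cKO stimulated. Psmd10 stood at 9.11, 13.8 and 13.4 scaled TPM in WT ex vivo, 7.98, 7.50 and 10.2 in cKO ex vivo, 15.3, 12.6 and 11.8 in WT stimulated and 11.4, 13.3 and 12.4 in cKO stimulated. In Psmd10, known as gankyrin, the cKO ex vivo libraries lay below all 6 stimulated libraries and overlapped those of WT ex vivo. The remaining tested members that are not given by library here (Psma4, Psma7, Psmb3, Psmb4, Psmc3, Psmd3, Psmd13 and Psmd14) had means over the groups between 13.4 and 61.99 scaled TPM.

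Psme1 and Psme2 form the PA28alphabeta cap induced by interferon gamma, Psme3 the nuclear PA28gamma cap and Psme4 the PA200 cap. Psme1 stood at 61.8, 72.6 and 76.2 scaled TPM in WT ex vivo, 66.7, 71.8 and 62.5 in cKO ex vivo, 69.3, 69.99 and 71.8 in WT stimulated and 69.1, 77.7 and 66.5 in cKO stimulated. Psme2 stood at 13.97, 15.5 and 17.7 scaled TPM in WT ex vivo, 16.5, 14.8 and 13.8 in cKO ex vivo, 17.3, 15.95 and 15.2 in WT stimulated and 18.3, 17.4 and 19.9 in cKO stimulated. Of the Psme2 transcript 82.5% has a near copy elsewhere, and the gene named Psme2b-ps was itself listed at 106, 87.1 and 116 scaled TPM in WT ex vivo. The level of Psme2 is therefore uncertain. Psme3 stood at 63.9, 56.1 and 66.8 scaled TPM in WT ex vivo, 58.1, 54.2 and 57.8 in cKO ex vivo, 56.3, 54.2 and 58.8 in WT stimulated and 54.1, 47.9 and 40.9 in cKO stimulated. Psme4 stood at 18.3, 15.5 and 15.5 scaled TPM in WT ex vivo, 16.4, 15.7 and 16.2 in cKO ex vivo, 19.5, 18.7 and 18.5 in WT stimulated and 14.9, 16.8 and 13.4 in cKO stimulated. Psme4 was higher in all WT stimulated libraries than in any other library.

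Stimulation of WT Treg was followed in the members by 6 rises and 3 falls. In the 19S base and lid 5 of 17 tested genes rose and none fell, while in the 20S core 1 of 14 rose, Psmb5, with the largest change of any member, and 3 fell; no test compared the base and lid with the core. The shares over all members were 15.8% higher and 7.89% lower, against 12.7% and 19.3% of all 13318 genes, or 32.0% in either direction. The median log2 change was 0.14 in the 19S base and lid, -0.22 in the 20S core and 0.026 over all 38 members, against 0.0021 over all genes. The median over the 38 was -0.024 without replicate 1 of WT ex vivo, 0.079 without replicate 3 and -0.0078 without replicate 3 of WT stimulated, 0.17 after quantile normalization, 0.22 on the TPM as deposited against 0.18 over all genes, and, over the 41 members that then entered, -0.20 with the filter lowered to 1 TPM and -0.18 with no filter, against 0.0055 and 0.020 over all genes. The sign of this median thus depended on the filter and on single libraries. At an unadjusted p under 0.05, 8 of 38 members lay above 0 and 8 below, against 2432 and 3228 of 13318 genes. The counts depended on the filter and scaling, since no member was called with the filter lowered to 1 TPM, where 0.898% of all genes rose and 4.53% fell. On the TPM as deposited 2 members rose and none fell, against 8.82% and 5.77% of all genes, and after quantile normalization 15 rose and 1 fell, against 15.5% and 14.4%.

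The called rises in WT were as follows. Psmb5 (mm9 ENSMUSG00000022193, chr14:55232644-55236851, minus strand), the beta5 subunit that cleaves after hydrophobic residues and is the target of bortezomib, rose by 0.60 (SE 0.16, adjusted p = 0.0144) in limma, the largest change of any member in WT. Psmc1 (ENSMUSG00000021178, chr12:101348396-101361574, plus strand) rose by 0.45 (SE 0.099, adjusted p = 0.00591), from 30.03 ± 4.15 to 41.02 ± 1.14 scaled TPM (SD, n = 3, limma). Psmc4, another ATPase of the ring (Rpt3), rose by 0.41 (SE 0.094, adjusted p = 0.00744) in limma. Psmc4 stood at 25.3, 24.8 and 29.2 scaled TPM in WT ex vivo, 26.95, 26.9 and 25.3 in cKO ex vivo, 37.2, 35.9 and 32.9 in WT stimulated and 30.4, 32.4 and 26.4 in cKO stimulated. All 3 WT stimulated libraries stood above all other libraries for Psmc1 and for Psmc4. Psmd1, the scaffold Rpn2, rose by 0.35 (SE 0.079, adjusted p = 0.00642) in limma. Psmd1 stood at 15.6, 14.95 and 16.9 scaled TPM in WT ex vivo, 20.2, 17.6 and 18.2 in cKO ex vivo, 19.3, 20.5 and 21.4 in WT stimulated and 16.9, 17.8 and 16.6 in cKO stimulated. Every WT stimulated library stood above every WT ex vivo library, but 1 cKO ex vivo library, at 20.2, lay among them. Psmd11, the lid subunit Rpn6, rose by 0.38 (SE 0.085, adjusted p = 0.00576) and Psmd7, its neighbour Rpn8, by 0.42 (SE 0.14, adjusted p = 0.0418) in limma. Psmd11 stood at 12.3, 13.9 and 12.97 scaled TPM in WT ex vivo, 14.9, 13.8 and 13.5 in cKO ex vivo, 15.9, 18.8 and 17.4 in WT stimulated and 17.3, 16.4 and 15.3 in cKO stimulated. Psmd7 stood at 21.7, 18.4 and 23.2 scaled TPM in WT ex vivo, 18.1, 19.5 and 22.6 in cKO ex vivo, 29.1, 26.9 and 29.3 in WT stimulated and 29.3, 23.2 and 19.6 in cKO stimulated. For both genes the WT ex vivo and WT stimulated libraries did not overlap. The transcript of Psmd11 has a near copy elsewhere over 54.6% of its length, Psmb5 over 99.9%, and Psmd1 overlaps the genes SNORA26 and Armc9 on its strand, so reads of these genes could be miscounted. The gene named Psmb5-ps stayed at or below 4.87 scaled TPM. Whether it is the near copy was not determined, and its low value does not show how reads were split. Psmb5 and Psmb7 also overlap a small or unnamed gene on their strand (Mir686 and AL844842.1), as do Psmc5, Psmd12 and Psmd13. Psmd14 overlaps 5S_rRNA and a second gene identifier of its own name on its strand, so its reads could be miscounted too. Psmb5 lost its call when replicate 1 of WT ex vivo (adjusted p = 0.0586, limma) or of WT stimulated (adjusted p = 0.0607) was left out. Psmd7 kept its call in 5 of 12 fits that left out a library, with an adjusted p of up to 0.124 (limma, without replicate 2 of WT ex vivo), and lost it under the replicate block. Psmc1, Psmc4, Psmd1 and Psmd11 kept theirs in all 12.

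The called falls in WT lay in the 20S core alone. Psma2 (ENSMUSG00000015671, chr13:14705521-14719674, plus strand), an alpha ring subunit, fell by 0.46 (SE 0.11, adjusted p = 0.0102) in limma. Psma2 stood at 28.6, 24.9 and 33.00 scaled TPM in WT ex vivo, 28.9, 22.9 and 25.2 in cKO ex vivo, 19.7, 21.6 and 20.6 in WT stimulated and 19.99, 20.1 and 17.8 in cKO stimulated. Psmb1 fell by 0.43 (SE 0.14, adjusted p = 0.0318) and Psmb7 by 0.29 (SE 0.10, adjusted p = 0.0488) in limma. In all 3 genes every WT stimulated library lay below every WT ex vivo library. Such separation on stimulation was common: in WT 11 members lay apart above and 10 below, against 21.1% and 26.3% of all genes, and in cKO 5 above and 12 below, against 22.8% and 30.7%. The 3 falls became 1 when replicate 1 or replicate 3 of WT ex vivo, or replicate 3 of WT stimulated, was left out, where 15.7% to 16.1% of all genes fell. Psma2 was still called in each of these 3 fits, and without WT ex vivo 3, the library with Xist, its change was -0.35. Of the other alpha and beta genes, Psma4, Psma6, Psma7, Psmb2 and Psmb4 also lay lower in every WT stimulated library but did not pass the test, with changes of -0.37 to -0.18 and adjusted p of 0.0502 to 0.193 in limma.

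**Figure D2:**
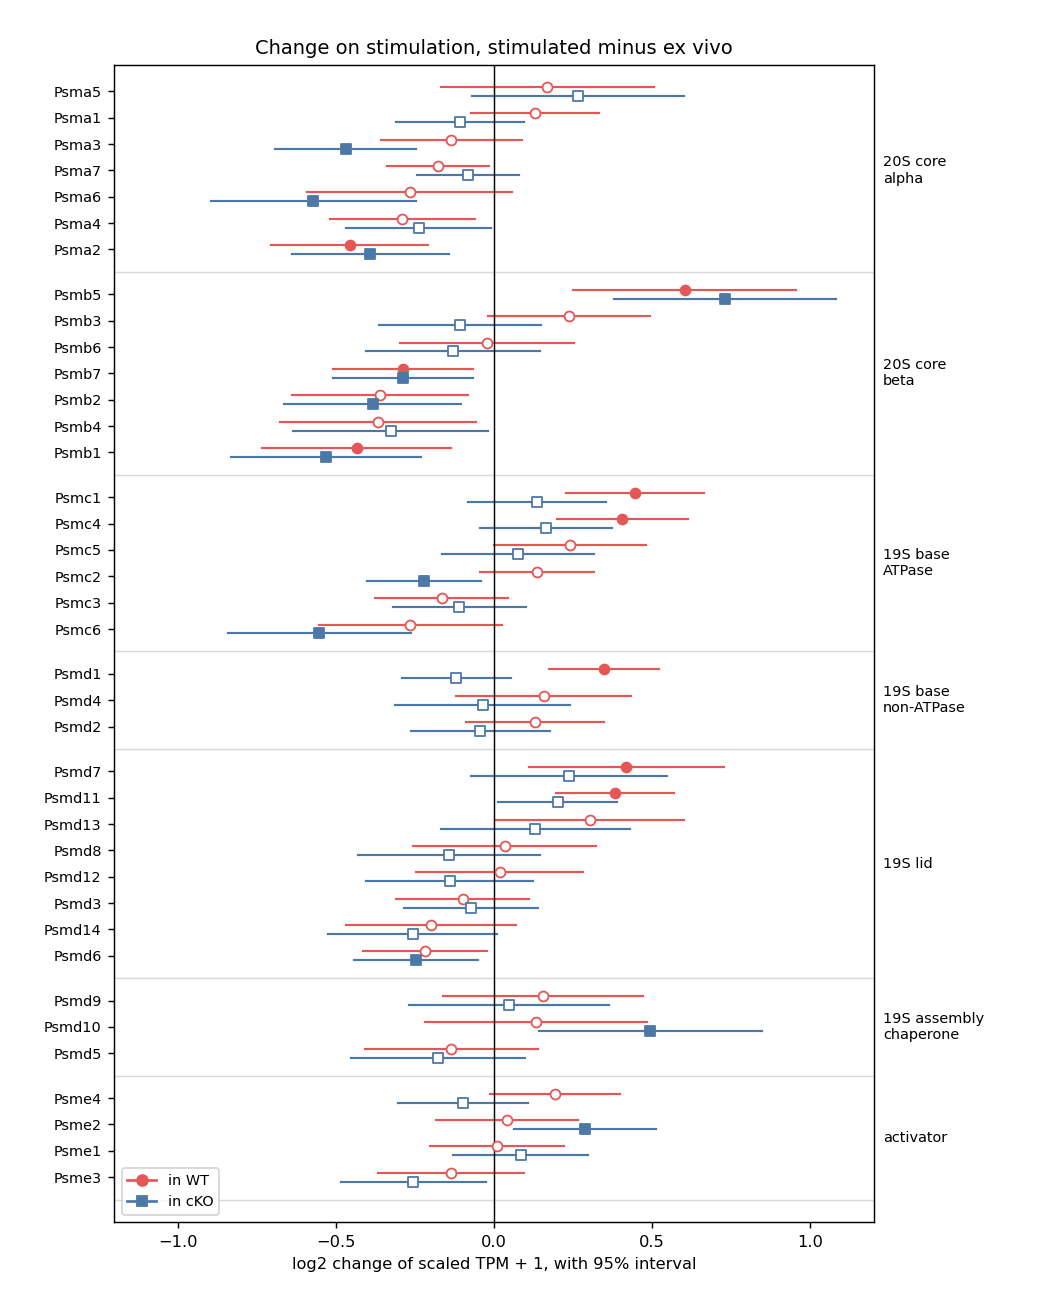
Log2 change on stimulation (stimulated minus ex vivo) of the 38 tested members, in WT (circles) and cKO (squares), with the 95% interval of the limma fit, filled where the adjusted p was under 0.05. Filled circles to the right of 0 are Psmb5 and 5 genes of the 19S base and lid, and filled circles to the left are Psma2, Psmb1 and Psmb7.

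In cKO Treg 3 of 38 members rose and 9 fell on stimulation, that is 7.89% and 23.7%, against 17.3% and 26.5% of all genes, or 43.8% in either direction. The median log2 change was -0.11 over the members, against -0.010 over all genes. It was -0.028 without replicate 3 of cKO stimulated, -0.062 without replicate 3 of WT ex vivo and -0.068 without replicate 1 of cKO ex vivo, -0.19 without replicate 2 of cKO stimulated, and 0.18 after quantile normalization against 0.0013 over all genes, so that its sign turned. It was further below 0 on the TPM as deposited, at -0.43 against -0.31 over all genes, and with the filter at 1 TPM or with none, at -0.62 and -0.61 against 0.030 and 0.035. In the 20S core 1 of 14 rose and 6 fell with a median of -0.26, and in the 19S base and lid none of 17 rose and 3 fell with a median of -0.073. At an unadjusted p under 0.05, 4 of 38 members lay above 0 and 12 below, against 2988 and 4005 of 13318 genes. Again the count depended on the scaling, with 16 rises and 2 falls after quantile normalization, against 17.2% and 21.8% of all genes, and no rise and 11 falls on the TPM as deposited, against 4.19% and 30.9%.

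Psmb5 was the member with the largest rise also in cKO, at 0.73 (SE 0.16, adjusted p = 0.00426) in limma. Psmd10 rose by 0.49 (SE 0.16, adjusted p = 0.0280) from the low ex vivo level given above. Psme2 rose by 0.29 (SE 0.10, adjusted p = 0.0407) in limma, with the reservation of its near copy. In all 3 genes every cKO stimulated library stood above every cKO ex vivo library. Among the falls, Psma6 changed by -0.57 (SE 0.15, adjusted p = 0.0101), Psmc6 by -0.55 (SE 0.13, adjusted p = 0.00686) and Psmb1 by -0.53 (SE 0.14, adjusted p = 0.00994) in limma. Psmc6 stood at 27.6, 24.2 and 30.4 scaled TPM in WT ex vivo, 32.5, 25.7 and 29.6 in cKO ex vivo, 21.7, 24.3 and 21.8 in WT stimulated and 19.2, 23.4 and 16.7 in cKO stimulated. Psmc6 (Rpt4) was thus the ATPase with the lowest stimulated levels in cKO after Psmc2, in a ring whose members Psmc1 and Psmc4 did not pass the test in cKO, at 0.14 (95% interval -0.083 to 0.35) and 0.16 (95% interval -0.044 to 0.37). Psma3 fell by 0.47 (SE 0.10, adjusted p = 0.00404) in limma, and for it 32.5% of the transcript has a near copy elsewhere. Psma3 stood at 12.1, 11.3 and 10.7 scaled TPM in WT ex vivo, 12.1, 10.3 and 12.1 in cKO ex vivo, 9.95, 11.8 and 9.15 in WT stimulated and 8.24, 7.63 and 8.14 in cKO stimulated. All 3 cKO stimulated libraries lay below the other 9. Psma2 fell by 0.39 (SE 0.11, adjusted p = 0.0172), Psmb2 by 0.38 (SE 0.13, adjusted p = 0.0311) and Psmb7 by 0.29 (SE 0.10, adjusted p = 0.0385) in limma. The smallest called changes were those of Psmd6, a lid subunit (Rpn7), at -0.25 (SE 0.089, adjusted p = 0.0438), and of Psmc2 (Rpt1), at -0.22 (SE 0.082, adjusted p = 0.0479) in limma. Psmd6 stood at 20.6, 19.7 and 19.2 scaled TPM in WT ex vivo, 21.2, 17.9 and 17.8 in cKO ex vivo, 18.5, 16.9 and 15.5 in WT stimulated and 15.9, 16.3 and 15.1 in cKO stimulated. The 9 falls became 3, and the 3 rises 5, when replicate 3 of cKO stimulated was left out, the shallowest library and the one richest in Gm10800. In that fit 19.9% of all genes fell and 14.15% rose, against 26.5% and 17.3% with all libraries. The falls became 4 or 5 without replicate 1 or 3 of cKO ex vivo, where 19.95% and 21.1% of all genes fell. The rises became 1 without replicate 2 of cKO ex vivo or of cKO stimulated, where 17.4% and 16.2% of all genes rose. Psma3, Psma6 and Psmc6 kept their call in each of the 12 fits that left out a library, as did Psmb5, while Psmd6 kept it in 4, Psmc2 in 3, Psmb7 in 5, Psme2 in 6, Psmb2 in 8, Psmd10 in 9, Psma2 in 10 and Psmb1 in 11. Without replicate 3 of cKO stimulated the adjusted p in limma was 0.197 for Psmd6 and 0.266 for Psmc2. Both also lost the call under median-of-ratios and quantile scaling, with voom and in the fit of only the groups compared, and Psmc2 also under the replicate block. Psme2 lost it with voom, in the fit of only the groups compared, with both lower filters, on the TPM as deposited and under the replicate block.

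**Figure D3:**
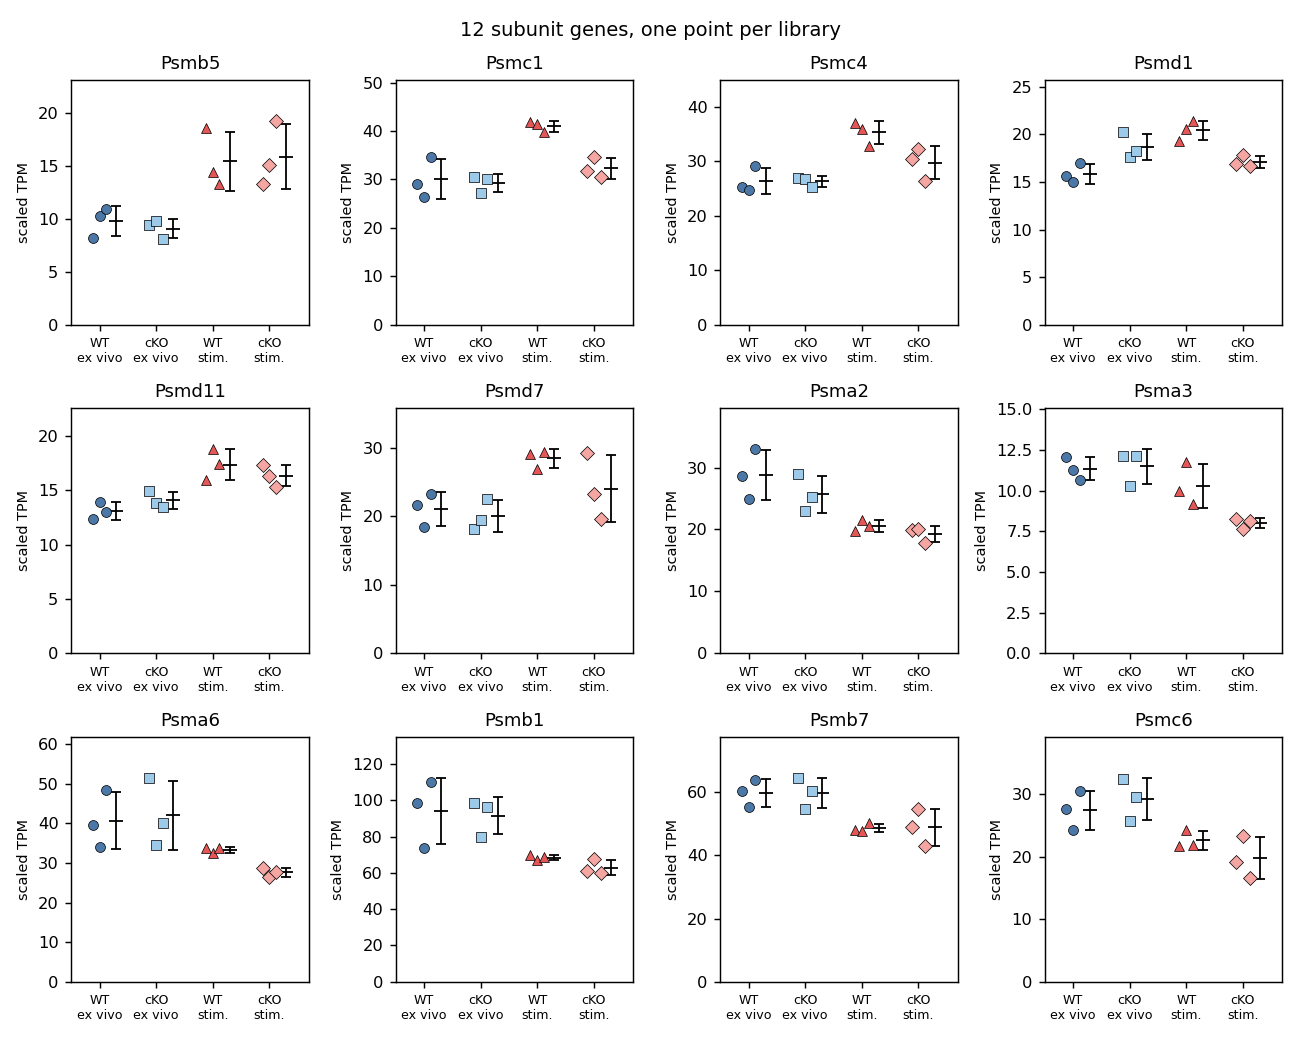
Scaled TPM of 12 named members in each library (points), with the mean and SD of 3 libraries per group beside them, on linear axes that start at 0. Psmc1 and Psmc4 are highest in WT stimulated, Psmb5 is high in both stimulated groups, and Psma3 and Psma6 are lowest in cKO stimulated.

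Promoter windows of the RefSeq table (build GRCm38.p6, 250 bases before to 50 after the start) were found for 33 of the 40 subunit members. TGACNNNGC, the core of the antioxidant response element that Nfe2l1 and its relatives bind, was found on either strand in 6 of 33 members (18.2%), against 12.5% of all genes by their first window. The 6 were Psmb5, Psmb6, Psmc6, Psmd9, Psmd12 and Psme4, of which Psmb5 rose in both genotypes and Psmc6 fell in cKO. CCAAT, bound by NF-Y, was found in 13 members (39.4%), against 37.9%, and GGGAA, the core that Ikaros reads, in 19 (57.6%), against 62.4%. The 250 bases before the start are shown for the member that rose in both genotypes, for a base and a lid gene that rose in WT, and for Psma2, which fell in both. Capitals mark TGACNNNGC in Psmb5, where it starts 47 bases before the start, and CCAAT in Psmc1 and Psma2, 175 and 54 bases before it. The window of Psmd11 holds neither motif, and a match is only a match of letters.
Psmb5 (chr14:54617996-54618245, minus strand): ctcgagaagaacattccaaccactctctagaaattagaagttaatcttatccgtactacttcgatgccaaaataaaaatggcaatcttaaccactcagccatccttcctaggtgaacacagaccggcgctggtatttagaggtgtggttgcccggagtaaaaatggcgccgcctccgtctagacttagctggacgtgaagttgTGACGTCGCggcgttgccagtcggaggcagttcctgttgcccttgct
Psmc1 (chr12:100109952-100110201, plus strand): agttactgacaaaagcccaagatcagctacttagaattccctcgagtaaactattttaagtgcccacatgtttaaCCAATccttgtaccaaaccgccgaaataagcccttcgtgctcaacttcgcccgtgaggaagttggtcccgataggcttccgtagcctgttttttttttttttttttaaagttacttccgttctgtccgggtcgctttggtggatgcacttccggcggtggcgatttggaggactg
Psmd11 (chr11:80428365-80428614, plus strand): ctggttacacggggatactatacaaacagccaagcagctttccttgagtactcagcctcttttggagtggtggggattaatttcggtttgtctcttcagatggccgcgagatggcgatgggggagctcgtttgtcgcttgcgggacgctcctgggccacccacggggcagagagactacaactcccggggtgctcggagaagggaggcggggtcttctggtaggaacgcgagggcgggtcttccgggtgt
Psma2 (chr13:14612992-14613241, plus strand): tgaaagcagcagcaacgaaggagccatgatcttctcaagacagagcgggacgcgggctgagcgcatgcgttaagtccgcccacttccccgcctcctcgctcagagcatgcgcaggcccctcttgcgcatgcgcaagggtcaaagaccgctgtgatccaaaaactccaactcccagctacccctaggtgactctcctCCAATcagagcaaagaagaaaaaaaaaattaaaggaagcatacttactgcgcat

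Called in both genotypes were 4 members, Psmb5 upward and Psma2, Psmb1 and Psmb7 downward, that is 10.5% of the 38, against 23.9% of all genes. Psmb7 kept its call in 4 of 12 fits that left out a library in WT and in 5 of 12 in cKO, lost both under the replicate block and under median-of-ratios and quantile scaling, and changed direction with the last. Psmb1 kept its call in 7 of 12 in WT and 11 of 12 in cKO, and its direction in cKO turned after quantile normalization. These stimulation effects come from separate libraries, WT and cKO, and 29 of the 38 tested members, or 76.3%, had the same sign in both, against 79.4% of all genes. Whether the effects differed was tested by the interaction, in which no member was called by limma, against 1.10% of all genes. At an unadjusted p under 0.05, 5 of 38 members lay below 0 and none above, against 1180 and 746 of 13318 genes, and limma-voom on the recovered reads also called none. The smallest adjusted p was that of Psmd1, at -0.47 (95% interval -0.71 to -0.22) and adjusted p = 0.0766 in limma, with an adjusted p of 0.0344 for Psmd1 after quantile normalization and 0.0543 with voom. In Psmd1 the 2 estimates had opposite signs, 0.35 in WT and -0.12 in cKO. The rises of Psmc1, Psmc4, Psmd7 and Psmd11 in WT were therefore not shown to differ from their changes in cKO, with interactions of -0.31 (95% interval -0.62 to -0.00069), -0.24 (95% interval -0.54 to 0.052), -0.18 (95% interval -0.62 to 0.26) and -0.18 (95% interval -0.45 to 0.083). Of the 17 genes of the 19S base and lid, 15 had an interaction below 0, with a median of -0.18, against -0.035 over all genes and -0.011 over the 14 core genes. Over all 38 members the median interaction was -0.11, and it ranged from -0.017 without replicate 3 of cKO stimulated to -0.17 without replicate 2 of cKO ex vivo among the fits that left out a library. It was -0.023 after quantile normalization against -0.061 over all genes, -0.38 with the filter at 1 TPM and -0.40 with none against -0.062 in each, and -0.63 on the TPM as deposited against -0.52.

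Because the number of calls moved with the scaling of the libraries, the 2 particles were also compared within each library, where no scaling enters. The summed TPM of the 17 genes of the 19S base and lid was divided by that of the 16 core genes, a measure chosen after the values had been seen and given as a description. The ratio was 0.896, 0.883 and 0.885 in WT ex vivo and 0.892, 0.944 and 0.903 in cKO ex vivo. After stimulation it was 1.15, 1.13 and 1.14 in WT and 1.07, 1.12 and 1.04 in cKO. All 6 stimulated libraries therefore lay above all 6 ex vivo libraries, with ratios of means of 1.28 in WT and 1.18 in cKO. As sums, and with no test, the core went from 519 ± 49.98 to 440.1 ± 8.20 scaled TPM in WT and from 506 ± 38.9 to 412 ± 22.6 in cKO (SD, n = 3), while the 19S base and lid stood at 461 ± 44.5 and 501 ± 5.80 in WT and at 462 ± 23.3 and 443 ± 38.2 in cKO. With geometric means of the genes of at least 5 TPM, in which abundant genes weigh no more than others, the ratio was 0.891, 0.861 and 0.901 in WT ex vivo, 0.914, 0.938 and 0.945 in cKO ex vivo, 1.04, 1.05 and 1.06 in WT stimulated and 1.03, 1.08 and 0.956 in cKO stimulated. Ex vivo and stimulated libraries again did not overlap. The stimulated libraries of WT and cKO did not overlap in the ratio of all sums, but did in the geometric means, in the sums without Psmb1 and Psmd8, and in the sums without members with a near copy or an overlap, the last of which ran from 1.002 to 1.042 in WT and from 0.944 to 1.009 in cKO.

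Psmb5 was the 1 core gene that rose in either genotype. Its ratio to Psmb6, another catalytic subunit, was 0.242, 0.311 and 0.323 in WT ex vivo, 0.255, 0.288 and 0.280 in cKO ex vivo, 0.682, 0.372 and 0.390 in WT stimulated and 0.422, 0.488 and 0.684 in cKO stimulated. The stimulated libraries all lay above the ex vivo libraries, with 1 high library in each stimulated group. The level of this ratio is as uncertain as that of Psmb5. Psmb8 (beta5i) takes the place of Psmb5 in the immunoproteasome, and its ratio to Psmb5 was 5.64, 4.12 and 5.12 in WT ex vivo, 5.76, 4.90 and 6.81 in cKO ex vivo, 2.27, 2.44 and 2.89 in WT stimulated and 3.11, 3.37 and 2.62 in cKO stimulated. This ratio was lower in all stimulated libraries than in any ex vivo library, but its level is uncertain, since 99.9% of the Psmb5 transcript has a near copy elsewhere. The pair Psmb10 and Psmb7 differed from it, at 0.662, 0.710 and 0.768 in WT ex vivo, 0.699, 0.658 and 0.645 in cKO ex vivo, 0.563, 0.573 and 0.727 in WT stimulated and 0.858, 0.760 and 1.06 in cKO stimulated. Psmb10 was thus above Psmb7 in 1 of 12 libraries.

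**Figure D4:**
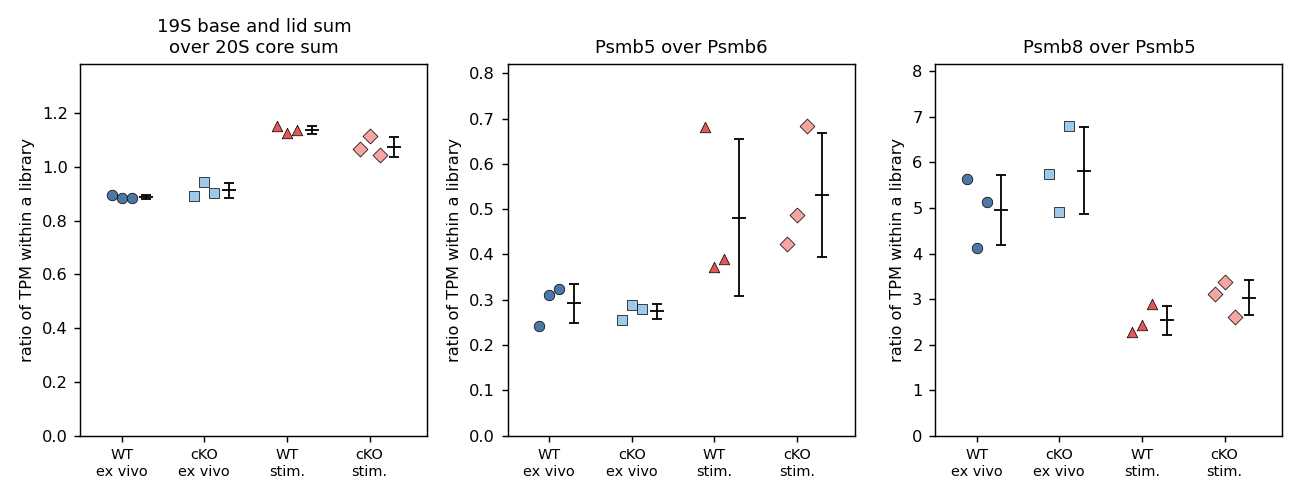
Ratios of TPM within each library (points) with the mean and SD of 3 libraries, for the 19S base and lid over the 20S core, for Psmb5 over Psmb6 and for Psmb8 over Psmb5, on linear axes that start at 0. In all 3 panels the 6 stimulated libraries do not overlap the 6 ex vivo libraries.

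Loss of Ikaros was compared within each state to ask whether the members depend on it. Ex vivo, no member was called by limma in cKO against WT, where 5.29% of all genes were, and voom also called none. The median change was -0.020, against -0.0069 over all genes, and single members ranged from -0.45 to 0.29. The sign of this median depended on single libraries, at 0.040 without replicate 3 of WT ex vivo and 0.026 without replicate 2 of cKO ex vivo. It was -0.062 without replicate 2 of WT ex vivo and -0.063 without replicate 1 of cKO ex vivo. On the TPM as deposited it was 0.21, as over all genes. At an unadjusted p under 0.05, Psmc2 and Psmd1 lay above 0 and Psmd10 below, against 1331 and 1054 of 13318 genes, at 0.19 (95% interval 0.010 to 0.37), 0.23 (95% interval 0.052 to 0.40) and -0.45 (95% interval -0.80 to -0.095). Without replicate 1 of WT ex vivo, Psmd10 was called, at -0.62 with an adjusted p of 0.0378 in limma. For 35 of the 38 members the 95% interval lay within 0.5 on either side of 0, so larger changes were not within the interval for these genes. The intervals of Psma5, Psmd9 and Psmd10 reached further. The libraries of the groups did not overlap in 3 members, all higher in cKO (Psmb3, Psmc2 and Psmd1), that is 7.89%, against 21.5% of all genes in either direction. For the catalytic subunits the changes were -0.092 (95% interval -0.44 to 0.26) for Psmb5, -0.021 (95% interval -0.30 to 0.25) for Psmb6 and -0.00066 (95% interval -0.22 to 0.22) for Psmb7.

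After stimulation, no member was called by limma either, against 6.92% of all genes, although 32 of 38 estimates lay below 0. The median was -0.12, against -0.035 over all genes, of which 7283 of 13318 lay below 0. It was -0.054 without replicate 3 of cKO stimulated and -0.18 without replicate 2, and after quantile normalization it was -0.055 against -0.064 over all genes, so that the members then did not lie lower. It was further below 0 with the filter at 1 TPM or with none, at -0.40 and -0.39 against -0.041 and -0.030 over all genes, and on the TPM as deposited, at -0.40 against -0.30. At an unadjusted p under 0.05, 7 of 38 members lay below 0 and none above, against 1849 and 1317 of 13318 genes. Libraries of the groups did not overlap in 11 members, 10 of them lower in cKO and 1 higher, that is 26.3% and 2.63%, against 18.0% and 12.8% of all genes. The lower 10 were Psma1, Psma3, Psma6, Psmc1, Psmc2, Psmc3, Psmc4, Psmd1, Psme3 and Psme4, and the higher was Psme2. The estimates nearest to a call were Psme4, at -0.32 (95% interval -0.52 to -0.11) and adjusted p = 0.0669, and Psmc1, at -0.34 (95% interval -0.56 to -0.12) and adjusted p = 0.0681 in limma. Voom called Psme4 alone, at -0.34 with an adjusted p of 0.0411, and the limma fit without replicate 2 of cKO stimulated called it as well. After quantile normalization the single call was Psma3, at -0.48. The catalytic subunits were close to 0, at 0.036 (95% interval -0.32 to 0.39) for Psmb5, -0.13 (95% interval -0.40 to 0.15) for Psmb6 and -0.00035 (95% interval -0.22 to 0.22) for Psmb7. For 32 members the interval lay within 0.5 of 0.

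**Figure D5:**
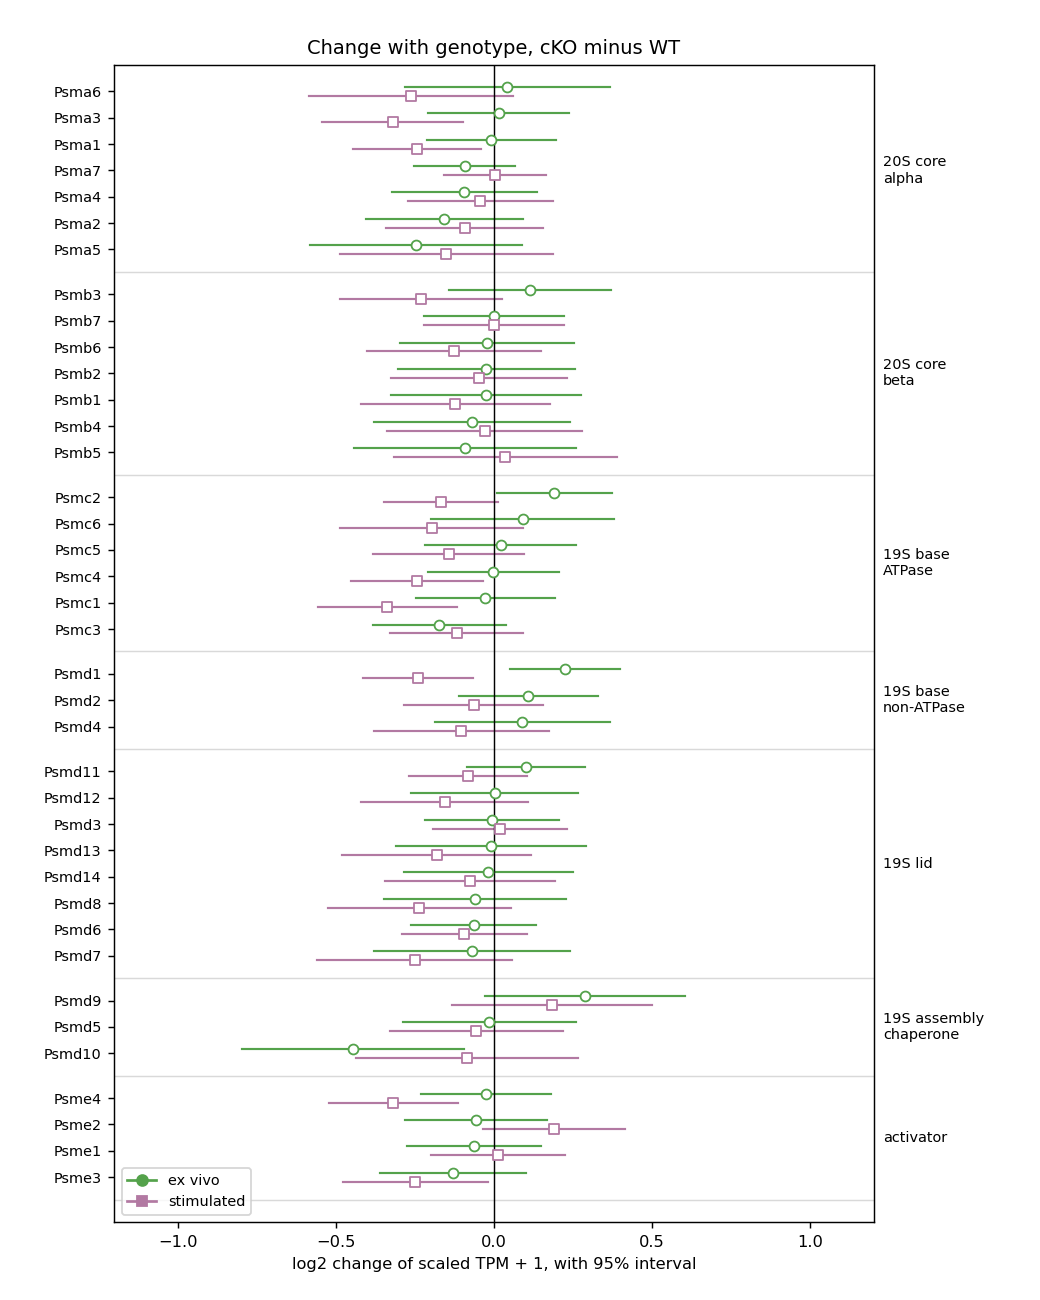
Log2 change with genotype (cKO minus WT) of the 38 tested members, ex vivo (circles) and stimulated (squares), with the 95% interval of the limma fit. No symbol is filled, since no adjusted p was under 0.05, and 32 of 38 squares lie to the left of 0.

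Genes that work with the members were read from lists chosen for their role. Of the immunoproteasome subunits, Psmb8 and Psmb10 were tested, while Psmb9 was listed at 0 or 1 read in every library, and a second gene identifier of the same name overlaps it on the same strand. Psmb8 stood at 46.3, 42.2 and 55.9 scaled TPM in WT ex vivo, 53.9, 48.2 and 54.8 in cKO ex vivo, 42.2, 35.2 and 38.4 in WT stimulated and 41.2, 50.8 and 50.4 in cKO stimulated. Psmb10 stood at 39.9, 39.1 and 49.00 scaled TPM in WT ex vivo, 44.9, 35.9 and 38.9 in cKO ex vivo, 27.1, 27.4 and 36.5 in WT stimulated and 41.99, 41.6 and 45.6 in cKO stimulated. Psmb10 (beta2i) fell on stimulation in WT, by 0.49 (SE 0.13, adjusted p = 0.0169) in limma, and was higher in cKO than in WT after stimulation, by 0.50 (SE 0.13, adjusted p = 0.0464). Its interaction was not called, at 0.60 (95% interval 0.18 to 1.01) and adjusted p = 0.165 in limma. Psmb8 was not called in any of the 5 comparisons.

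Among 6 regulators of proteasome genes, 2 rose and 2 fell in WT, and 1 rose and 3 fell in cKO, against all-gene shares of 12.7% and 19.3% in WT and of 17.3% and 26.5% in cKO. Nfe2l1 is the transcription factor that restores proteasome gene expression when the proteasome is impaired, Ddi2 the protease that releases it and Ngly1 the glycanase that readies it. Nfe2l1 stood at 20.4, 21.8 and 20.9 scaled TPM in WT ex vivo, 21.4, 20.1 and 20.6 in cKO ex vivo, 23.4, 25.1 and 23.9 in WT stimulated and 26.2, 26.2 and 25.1 in cKO stimulated. Nfe2l1 rose by 0.19 (SE 0.064, adjusted p = 0.0437) in WT and 0.31 (SE 0.064, adjusted p = 0.00343) in cKO in limma, a direction that was turned by the 1 TPM filter and by no filter in both, and by the TPM as deposited in cKO. Ddi2 stood at 11.8, 10.9 and 10.1 scaled TPM in WT ex vivo, 13.3, 12.02 and 12.8 in cKO ex vivo, 17.8, 18.8 and 18.4 in WT stimulated and 13.3, 14.9 and 13.2 in cKO stimulated. Ddi2 rose by 0.70 (SE 0.080, adjusted p = 8.74e-05) in WT, while in cKO the change was 0.11 (95% interval -0.065 to 0.29), and it was lower in cKO than WT after stimulation, by -0.39 (SE 0.080, adjusted p = 0.0156) in limma. The interaction was called, at -0.59 (SE 0.11, adjusted p = 0.0377), as 1 of 6 regulators against 1.10% of all genes, and this call was lost in 8 of 12 fits that left out a library. Ngly1 stood at 10.5, 11.2 and 9.19 scaled TPM in WT ex vivo, 10.6, 9.33 and 9.30 in cKO ex vivo, 7.20, 7.31 and 7.13 in WT stimulated and 5.58, 5.63 and 5.43 in cKO stimulated. Ngly1 fell in both genotypes, by 0.45 (SE 0.088, adjusted p = 0.00259) in WT and 0.71 (SE 0.088, adjusted p = 0.000120) in cKO in limma, and was lower in cKO than WT after stimulation, at -0.33 (SE 0.088, adjusted p = 0.0497). Midn, the adaptor midnolin that brings nuclear proteins to the proteasome without ubiquitin, fell by 0.62 (SE 0.097, adjusted p = 0.000713) in WT and 0.89 (SE 0.097, adjusted p = 5.22e-05) in cKO in limma.

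Ubiquitin is the tag by which substrates are recognised, and Ubb encodes a chain of it. Ubb stood at 205, 219 and 268 scaled TPM in WT ex vivo, 229, 203 and 233 in cKO ex vivo, 109, 130.5 and 124 in WT stimulated and 110.3, 117 and 81.2 in cKO stimulated. Ubb fell by 0.91 (SE 0.15, adjusted p = 0.000884) in WT and 1.12 (SE 0.15, adjusted p = 0.000201) in cKO in limma, with all stimulated libraries below all ex vivo libraries. Rps27a encodes ubiquitin fused to a ribosomal protein. Rps27a fell by 0.75 (SE 0.096, adjusted p = 0.000192) in WT and 0.55 (SE 0.096, adjusted p = 0.00111) in cKO, and was lower in cKO than WT ex vivo, at -0.41 (SE 0.096, adjusted p = 0.0314) in limma. The 12 tested partners and assembly factors outside the rule held no rise and 1 fall in WT, and no rise and 3 falls in cKO, with medians of -0.14 and -0.24; the all-gene shares were 12.7% for rises and 19.3% for falls in WT, and 17.3% and 26.5% in cKO. The 8 shuttle and segregase genes held 1 rise and 1 fall in WT and 1 rise and 3 falls in cKO.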

How the data were processed

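RNA-seq was analysed from 12 libraries in 4 groups of 3. The authors aligned the reads with STAR 2.6.0c to mm9, counted them by strand with HTSeq 0.6.1 and removed ribosomal RNA features. The deposited values were TPM per gene, a signal from which whole reads could be recovered, and the same values on a log2 scale, which the authors gave as log2 TPM. A deposited table of the authors' own comparisons (fold changes and p-values) was not used. TPM were divided by trimmed-mean factors (trim 30% and 5%; factors 0.7323 to 1.21) and tested on log2(scaled TPM + 1) with limma 3.58.1 in R 4.3.3, 4 groups in 1 fit with 8 residual degrees of freedom, over genes with a group mean of at least 5 TPM, with Benjamini-Hochberg adjustment per comparison. Script steps were tested on simulated data. Replicates differed beyond sampling noise. Genes were named by a fixed rule: the catalytic beta subunits, the 2 highest and 2 lowest of each role, and called members. The members and lists were chosen with earlier results of these data known. Alternatives were other filters, scalings, pseudocounts, limma-voom on recovered reads, a replicate block, only the groups compared, and each library left out. Intervals assume that replicates vary alike in all groups. The results of 2 pathway genes are not reported here.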

Additional observations from a re-analysis of the deposited data

Results flagged for a closer look

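Ddi2, the protease that releases the transcription factor Nfe2l1, was the 1 result whose response to stimulation differed between the genotypes by the interaction term, at -0.59 (log2, adjusted p = 0.0377, limma). The change was 0.70 in WT and 0.11 in cKO. The interaction lost its call with the 1 TPM filter, with no filter, on the TPM as deposited, with the replicate block (adjusted p = 0.0878) and in 8 of 12 fits that left out a library, and its adjusted p ranged from 0.012 to 0.623 over the alternatives. The cause was not tested.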

How the results depend on the processing

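With the filter at 1 TPM or with none, no member rose or fell in WT (0 and 0), and in cKO none rose and 13 fell. Of all genes, 0.898% rose and 4.53% fell in WT with the 1 TPM filter, and 2.23% and 15.2% in cKO. With no filter the shares were 0.84% and 3.84% in WT, and 2.01% and 13.85% in cKO. On the TPM as deposited 2 rose and 0 fell in WT, against 8.82% and 5.77% of all genes. In cKO 0 rose and 11 fell, against 4.19% and 30.9%. Quantile normalization gave 15 and 1 in WT, against 15.5% and 14.4%, and 16 and 2 in cKO, against 17.2% and 21.8%. It also gave 1 lower member in cKO against WT after stimulation (Psma3), against 6.78% of all genes. In the interaction it gave 1 lower member (Psmd1), against 1.61%. Voom gave 6 rises and 6 falls in WT, against 15.15% and 21.4% of all genes, and 2 and 8 in cKO, against 19.4% and 27.5%. It gave 1 lower member in cKO against WT after stimulation, against 5.11% of all genes. Median-of-ratios scaling gave 4 rises and 5 falls in cKO, against 20.4% and 23.3% of all genes. The fit of only the groups compared gave 2 and 5 there, against 14.2% and 23.0%. Leaving out a library gave 4 to 6 rises and 1 to 4 falls in WT, against 8.38% to 13.0% and 15.5% to 19.9% of all genes. In cKO it gave 1 to 5 rises and 3 to 9 falls, against 10.45% to 19.3% and 19.9% to 26.7%. Lower members in cKO against WT numbered 0 to 1 in either state, against 0.673% to 1.88% of all genes ex vivo and 1.17% to 4.997% after stimulation.

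Among genes called in either fit, directions turned after quantile normalization for Psmb7 in WT (0.055) and, in cKO, for Psma1 (0.25), Psma7 (0.18), Psmb1 (0.025), Psmb2 (0.13), Psmb7 (0.18), Psmc3 (0.26), Psmd2 (0.34), Psmd4 (0.32), Psmd8 (0.42), Akirin2 (0.10) and Ubqln1 (0.11). With the 1 TPM filter they turned for Nfe2l1 (-0.058 in WT, -0.22 in cKO), Psmd10 (-0.0066), Psme2 (-0.23) and Ubqln4 (-0.23), with no filter for Nfe2l1 (-0.031 and -0.21), Psme2 (-0.22) and Ubqln4 (-0.22), and on the TPM as deposited for Psme2 (-0.025), Nfe2l1 (-0.011) and Ubqln4 (-0.016). Over the 38 tested members, called or not, the sign differed from that of the reported fit in 14 in WT and 11 in cKO with the 1 TPM filter, in 12 and 10 with no filter, in 7 and 10 as deposited, and in 5 and 19 after quantile normalization. TPM as deposited moved the median change of all genes on stimulation to 0.18 in WT and -0.31 in cKO, and that of cKO against WT to 0.21 ex vivo and -0.30 after stimulation. Of all genes called on stimulation, 39.6% rose in WT, against 16.5% with the 1 TPM filter, 60.5% as deposited and 51.8% with quantile normalization, and 39.5% in cKO, against 12.8%, 11.9% and 44.1%. With geometric means the fold of the 19S to 20S ratio was 1.18 in WT and 1.09 in cKO, and without Psmb1 and Psmd8 it was 1.26 and 1.15, and without members with a near copy or an overlap 1.29 and 1.2, alternatives chosen after seeing the data. With a replicate block, 5 rose and 2 fell in WT, against 11.4% and 18.2% of all genes. In cKO 2 rose and 7 fell, against 15.8% and 25.2%. The deviations of libraries from their group means over the tested genes correlated at -0.208 to 0.257 between same-numbered libraries. Among libraries of other groups, 6 of 12 correlated best with their own number by these deviations. The cause of these differences was not tested.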
